A study of Rattus norvegicus with 9 samples.

Results

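The transcripts described here are the neutrophil-attracting CXC chemokines Cxcl1, Cxcl2, Cxcl3 and Cxcl6, the chemokine receptors Cxcr1 and Cxcr2, the granulocyte colony-stimulating factor (G-CSF) gene Csf3 and its receptor Csf3r, in rat liver with and without acute-on-chronic liver failure (ACLF). They were chosen by symbol and make up 8 of the 32883 genes measured by bulk poly(A) RNA-seq. Livers came from 3 normal Sprague-Dawley rats, for which no treatment is listed, and from 6 ACLF rats. All were male and were obtained at 8 to 11 weeks of age according to the methods. The age at which livers were taken is not given, so normal and ACLF rats may have differed in age. The 6 ACLF rats had bile duct ligation (BDL) for 21 days, which leaves the liver with biliary cirrhosis, and then lipopolysaccharide (LPS) at 0.25 mg/kg. All 6 were connected to an extracorporeal blood circuit from 1 h after LPS, for 2 h, and the livers were taken 24 h after LPS. In the empty group (3 rats) the circuit held neither cells nor adsorbent, whereas in the UTOpiA group (3 rats) it held a granulocyte and monocyte adsorption (GMA) column of cellulose acetate beads in tandem with columns of alginate-encapsulated hepatocyte-like cells. These cells were differentiated from human iPSCs. ACLF livers were taken from rats alive at that time, so rats that died earlier do not contribute. The empty group carries BDL, LPS and the circuit together, with the isoflurane, heparin and jugular catheters that went with the circuit in both ACLF groups.

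Cxcl1, Cxcl2, Cxcl3 and Cxcl6 encode small secreted chemokines with a Glu-Leu-Arg motif before the first cysteines. They bind CXCR2 on neutrophils, and some of them also bind CXCR1, which draws the cells out of the blood towards the site of release. Macrophages, endothelial cells, stellate cells, cholangiocytes and hepatocytes can produce them after LPS, IL-1 or TNF, largely through NF-kB. G-CSF, the product of Csf3, acts through CSF3R on the marrow and on neutrophils themselves, where it drives granulocyte production, release and survival. Cxcr2 and Csf3r are transcribed mainly in neutrophils and their precursors, so that in whole liver their RNA comes with the cells that carry it.

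Between 14241172 and 17321677 reads were counted per library. The liver label was checked with 10 hepatocyte markers, whose summed TPM (transcript abundance scaled by gene length and library total) lay between 149000 and 162000 in normal livers and between 32200 and 58400 in ACLF livers. Empty replicate 2 stood apart from the other empty livers, with a chi-square per degree of freedom of 164 and 212 against them, where the other pair gave 43.8. It held the highest level of Cxcl1, Cxcl2, Cxcl3 and Csf3 of all 9 livers. Of the 8 members, 6 were among the 14089 genes with enough reads for edgeR's test. Csf3 was below that filter and Cxcr1 had no read in any library, and these are described by their counts. A member was called when its adjusted p was under 0.05 and its difference more than 2-fold.

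The 4 ligand genes lie within 131 kb on the minus strand of chromosome 14, at the positions listed in the deposited tables. Cxcl2 (ENSRNOG00000002792) spans 18731378 to 18733391 and Cxcl1 (ENSRNOG00000002802) spans 18743685 to 18745457. Cxcl3 (ENSRNOG00000028043) spans 18820168 to 18839595 and Cxcl6 (ENSRNOG00000002843) spans 18860264 to 18862407. The interval holds 8 listed genes, the other 4 being the platelet chemokine genes Pf4 and Ppbp and a pair of lincRNAs. Cxcr2 (ENSRNOG00000014269) and Cxcr1 (ENSRNOG00000048239) are separated by 32.2 kb on chromosome 9, at 81427730 to 81434102 on the plus strand and 81466332 to 81469274 on the minus strand. Csf3 (ENSRNOG00000008525) lies on the plus strand of chromosome 10 at 86616785 to 86619157, and Csf3r (ENSRNOG00000008759) on the plus strand of chromosome 5 at 144031402 to 144051600.

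NF-kB binds decameric DNA sites, and a 9-letter form of such a site, GGGNNTTTC, was searched on both strands in 300-base promoters of the RefSeq table (build GRCr8, from 250 bases before to 50 after the start). The table held 6 of the members and not Cxcl3 or Csf3. The motif was found in 1517 of 33469 promoters (4.53%), and in 37 of them (0.111%) it occurred at least 2 times. Cxcl1 and Cxcl2 each held 2 matches, Cxcl6 and Cxcr2 each held 1, and Cxcr1 and Csf3r held 0. The promoters of the 3 ligands are shown because the matches lie close to the start in each of them, with capitals marking the matches in the stretch from 120 bases before to 50 bases after the start.
Cxcl1, GRCr8 chr14:17479272-17479441, minus strand: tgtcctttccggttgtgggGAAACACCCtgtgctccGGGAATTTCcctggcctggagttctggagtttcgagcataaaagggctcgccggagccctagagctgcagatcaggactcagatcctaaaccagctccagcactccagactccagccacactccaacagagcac
Cxcl2, GRCr8 chr14:17467206-17467375, minus strand: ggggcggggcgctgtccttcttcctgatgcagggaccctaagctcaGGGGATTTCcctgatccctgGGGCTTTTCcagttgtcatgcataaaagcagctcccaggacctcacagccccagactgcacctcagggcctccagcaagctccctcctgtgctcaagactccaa
Cxcl6, GRCr8 chr14:17596368-17596537, minus strand: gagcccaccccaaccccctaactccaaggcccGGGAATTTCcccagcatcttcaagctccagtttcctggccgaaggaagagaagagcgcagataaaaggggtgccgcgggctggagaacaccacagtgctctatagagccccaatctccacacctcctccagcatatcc
The forward match of Cxcl1, GGGAATTTC, covers bases 84 to 76 before the start, and the same 9 letters stand 88 to 80 bases before the start of Cxcl6. Cxcl1 holds a reverse-strand match, GAAACACCC, at 101 to 93 bases. The matches of Cxcl2, GGGGATTTC and GGGCTTTTC, lie 74 to 66 and 54 to 46 bases before its start. The match of Cxcr2 lies on the reverse strand 170 to 162 bases before its start. A match of letters is a description of the sequence and was not tied to binding in these livers.

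In normal livers the ligands were close to absent, and in the empty group all 4 rose. Cxcl1, the rat homologue of the GRO-alpha chemokine, had 7 reads in each of the 3 normal libraries and 696, 14371 and 961 reads in empty replicates 1, 2 and 3. Its level was 0.904 ± 0.0359 TPM in normal livers and 624 ± 919 TPM in the empty group (SD, n = 3 each), with single values of 75.4, 1680 and 110 TPM. Every empty liver lay above every normal liver, and replicate 2 was 22.3 times the lowest empty liver. edgeR gave a log2 fold change of 8.91 (SE 1.48, adjusted p = 0.00161), and of 6.12 without replicate 2 (adjusted p = 1.12e-05).

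Cxcl2, known as MIP-2 and induced early in LPS-stimulated macrophages, had 0 reads in all 3 normal libraries and 125, 2649 and 155 reads in the empty group. Its TPM there were 11.7, 268 and 15.4. With the normal libraries set to the limit of 3 counts each, the mean of the empty group was at least 208-fold higher (edgeR adjusted p = 0.00933), and at least 27.8-fold higher without empty replicate 2. This limit covers counting error only.

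Cxcl3, a close relative of Cxcl2, also had 0 reads in normal livers, and 385, 781 and 379 reads in the empty group, or 26.3, 57.8 and 27.5 TPM. The empty group was at least 107-fold higher (edgeR adjusted p = 0.00152), and at least 76.2-fold without empty replicate 2. The spread within the empty group was narrower than for Cxcl1 and Cxcl2, with a highest liver 2.2 times the lowest.

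Cxcl6, the rat counterpart of the LIX chemokine, had 0, 3 and 0 reads in normal livers and 2537, 2298 and 2491 reads in the empty group. Its level in the empty group was 158 ± 4.87 TPM (SD, n = 3), and the 3 livers differed by no more than 1.06 times. The summed reads gave a 1500-fold ratio to normal livers, with a 95% exact interval of 512 to 7260 for counting error (edgeR adjusted p = 0.000229). All normal reads came from normal replicate 2, so the size of this ratio rests on that liver. The log2 fold change by edgeR was 10.42 with it and 13.99 without it. Cxcl6 ranked 706, 780 and 719 among the 14089 tested genes by TPM in the empty livers. Cxcl1 ranked 1412, 71 and 1042, so that Cxcl6 was the higher of this pair in replicates 1 and 3 and Cxcl1 in replicate 2.

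Csf3 was detected only in the empty group, with 10, 49 and 7 reads (0.776, 4.12 and 0.576 TPM) and 0 reads in each of the 6 other livers. Against normal livers at the limit of 3 counts this is at least 4.64-fold higher, and at least 1.71-fold without empty replicate 2. In these 6 livers 0 reads allow up to 0.186 to 0.211 CPM (counts scaled to library size, here before TMM factors, which the fold bounds include).

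The receptors of neutrophils rose as well. Cxcr2 had 0 reads in normal livers and 45, 26 and 136 reads in the empty group, or 3.42, 2.14 and 11 TPM. It was at least 13.7-fold higher in the empty group (edgeR adjusted p = 0.00167), and at least 7.45-fold without empty replicate 3. Csf3r had 12, 2 and 7 reads in normal livers and 226, 54 and 436 reads in the empty group. Its level was 0.207 ± 0.154 TPM in normal livers and 6.09 ± 4.97 TPM in the empty group (SD, n = 3 each). The log2 fold change was 4.32 (SE 0.78, adjusted p = 0.00215 by edgeR), and 3.62 without empty replicate 3. Both receptors were lowest in empty replicate 2, the liver in which Cxcl1 and Cxcl2 were highest. Cxcr1 had 0 reads in all 9 libraries and could not be compared. In bulk liver, more cells of a type and more RNA per cell cannot be told apart.

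The edgeR test called 6 of the 6 tested members higher in the empty group, and 20.7% of all tested genes. The members had at most 12 reads in any normal library and passed the filter on low counts through the ACLF libraries, so nothing is read from the one count against the other. The groups did not overlap in any of these 6, nor in Csf3, while 53.4% of tested genes had every empty TPM above every normal TPM. TPM are shifted between these groups, since the median log2 difference over all genes was 0.44 on log2(TPM + 1) and 0.04 after TMM scaling. On TMM-scaled CPM 32.4% of genes were separate, and the same 6 members were among them. Two-sided exact permutation tests on TPM gave p = 0.1 for each of the 7 detected members, the smallest value 3 livers against 3 allow.

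**Figure D1:**
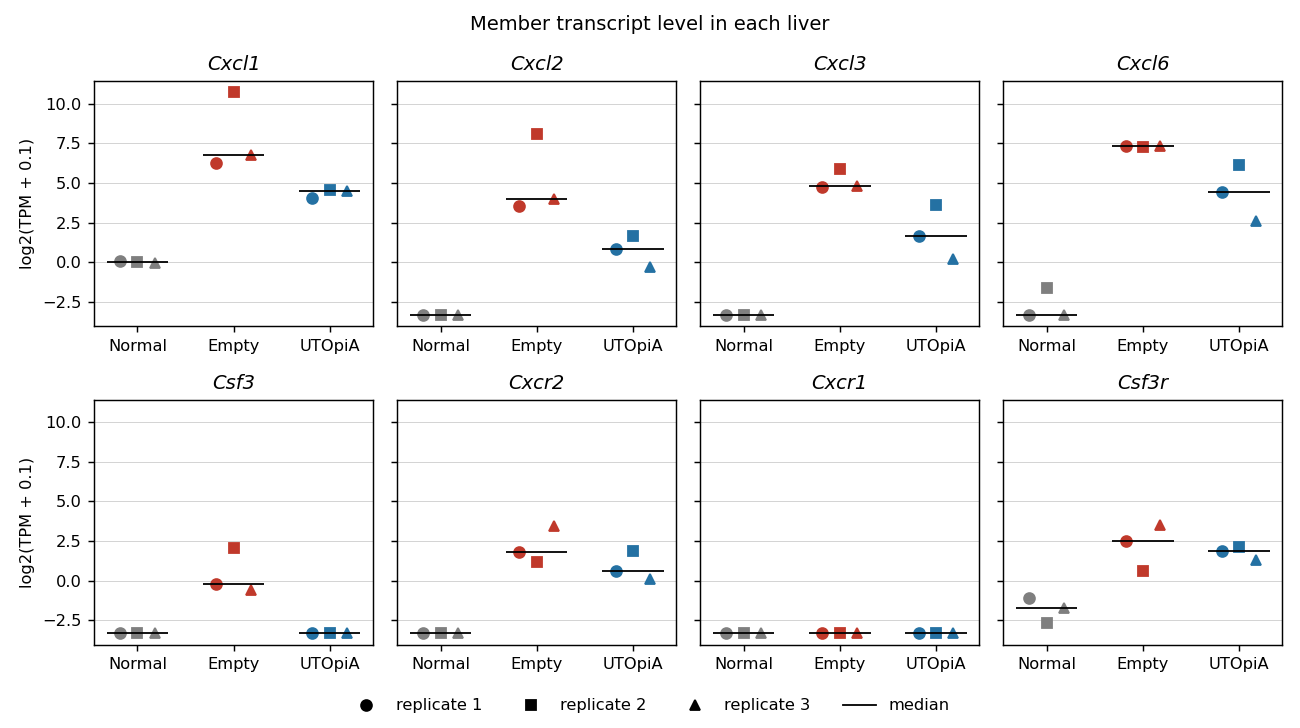
Level of each member in each liver, as log2(TPM + 0.1) on the vertical axis, for the Normal, Empty and UTOpiA groups (3 livers each), with a marker shape for each replicate and a line at the group median. The ligands and Csf3 lie lower in all 3 UTOpiA livers than in any empty liver, Cxcr2 and Csf3r overlap between those groups, and Cxcr1 sits at 0 TPM throughout.

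The next comparison asked whether adding GMA and hepatocyte-like cells to the circuit went with other levels of these transcripts. All 4 ligands were lower in every UTOpiA liver than in any empty liver, but none passed the adjusted threshold in edgeR. Cxcl1 was 16.2, 23.2 and 22.0 TPM in UTOpiA replicates 1, 2 and 3 (126, 198 and 188 reads), and even the lowest empty liver was 3.25 times the highest UTOpiA liver. The log2 fold change was -4.72 (SE 1.15, unadjusted p = 0.0029, adjusted p = 0.304 by edgeR). The mean of the empty group was 30.5 times that of the UTOpiA group and the median 5.01 times. Without empty replicate 2 the ratio of means was 4.54. The UTOpiA livers were close to each other, at 20.5 ± 3.75 TPM (SD, n = 3).

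Cxcl2 was 1.67, 3.03 and 0.709 TPM in the UTOpiA group, from 15, 30 and 7 reads. The lowest empty liver was 3.86 times the highest UTOpiA liver. The log2 fold change of -5.63 (SE 1.49, unadjusted p = 0.00748, adjusted p = 0.357 by edgeR) ranked 3 among the 14089 genes ordered from the lowest fold change, and that of Cxcl1 ranked 5. These ranks rested on empty replicate 2, without which Cxcl2 ranked 41 at -2.75 and Cxcl1 ranked 112 at -1.93 among 14398 genes. The ratio of means of Cxcl2 was 54.6 with that liver and 7.51 without it, and the ratio of medians 9.24 and 8.13.

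Cxcl3 was 3.08, 12.3 and 1.04 TPM in the UTOpiA group (38, 167 and 14 reads), against 26.3 TPM or more in the empty group. Its log2 fold change was -2.71 (SE 0.74, unadjusted p = 0.00858, adjusted p = 0.365 by edgeR). Cxcl6 was 21.7, 71.0 and 5.88 TPM (296, 1063 and 88 reads), against 154 TPM or more, with a log2 fold change of -2.23 (SE 0.64, unadjusted p = 0.00708, adjusted p = 0.356 by edgeR). For both genes UTOpiA replicate 2 was the highest and replicate 3 the lowest of the group, 11.9-fold apart for Cxcl3 and 12.1-fold for Cxcl6. The medians of the empty group were 8.92 and 7.23 times those of the UTOpiA group.

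Csf3 had 0 reads in all 3 UTOpiA livers, so that the empty group was at least 6.09-fold higher by its mean and at least 2.24-fold without empty replicate 2. In empty replicate 3, with 7 reads, the level was near this limit.

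The receptors overlapped between the groups. Cxcr2 was 1.44, 3.53 and 0.987 TPM in the UTOpiA group (16, 43 and 12 reads), with a log2 fold change of -1.30 (SE 0.66, adjusted p = 0.542 by edgeR), and UTOpiA replicate 2 lay above empty replicate 2. Its excess over empty replicate 1 on TPM was absent on TMM-scaled CPM, at 2.17 against 2.33. Without empty replicate 3 the Cxcr2 difference was -0.43. Csf3r was 3.57, 4.23 and 2.36 TPM (123, 160 and 89 reads), with a log2 fold change of -0.64 (SE 0.61, adjusted p = 0.75 by edgeR). All 3 UTOpiA livers lay above empty replicate 2 and below the other empty livers. Without empty replicate 3 the Csf3r difference was 0.06. These misses of the threshold do not show that the receptors were equal.

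edgeR called 0 of the 6 tested members lower in the UTOpiA group, and 0.0% of all genes, with 1456 genes at an unadjusted p under 0.05. The 4 ligands were among the 1.87% of tested genes that lay more than 2-fold lower with p under 0.05 before adjustment. Non-overlapping TPM below the empty group were found in 8.62% of tested genes, which included the same 4 ligands, and in 5.97% on TMM-scaled CPM. The study had already reported Cxcl2 and Cxcl6 as suppressed in the UTOpiA group from these same data. Shares set beside the ligands, here and below, are therefore a description and no independent support. On log2(TPM + 1) the median difference over all genes was -0.17, and 0.00 after TMM scaling. Exact permutation tests on TPM gave p = 0.1 for the 4 ligands and Csf3, the smallest possible, and p = 0.3 for Cxcr2 and p = 0.5 for Csf3r.

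The calls depended on the tool and on single livers. DESeq2, the tool of the study's methods, called Cxcl3 (adjusted p = 0.0117), Cxcl6 (adjusted p = 0.0349) and Csf3 (adjusted p = 0.023) lower in the UTOpiA group, where it called 0.511% of genes. It gave no p for Cxcl1 and Cxcl2, which it set aside for an extreme count. Without empty replicate 2, edgeR called Cxcl1 at a log2 fold change of -1.93 (adjusted p = 0.024), where 0.153% of genes were called. The values of Cxcl2 and Cxcl3 were then -2.75 and -2.23 and that of Cxcl6 stayed at -2.23, none of them called. Without UTOpiA replicate 2, edgeR called 0 members and 0.119% of genes, with a log2 fold change of -3.26 (adjusted p = 0.0576) for Cxcl6 and -3.90 (adjusted p = 0.0654) for Cxcl3. Leaving out single livers was tried with DESeq2 only after seeing these values. With empty replicate 1, 2 or 3 left out in turn it called Cxcl1, Cxcl2 and Cxcl3 each time. The shares of genes called were 0.754%, 0.994% and 0.493%. Log2 fold changes were -5.26, -1.96 and -5.24 for Cxcl1 and -6.22, -2.79 and -6.21 for Cxcl2. The fits without replicate 1 or 3 kept empty replicate 2, which held the highest Cxcl1 and Cxcl2 counts. A p was given there with that liver still in, so those calls are not free of it. Cxcl6 was not called in the fits without an empty liver (DESeq2 adjusted p = 0.479, 0.314 and 0.652), though its log2 fold change was -2.21, -2.26 and -2.27. It called Cxcl3 and Cxcl6 without UTOpiA replicate 2 (2.58% of genes) or replicate 3 (0.375% of genes). Without UTOpiA replicate 1 it called 0 members and 0.176% of genes, with adjusted p = 0.169 for Cxcl3 and adjusted p = 0.837 for Cxcl6. Cxcl1 and Cxcl2 had no p in any fit that left out a UTOpiA liver. The DESeq2 call of Csf3 was lost in each of these 6 fits. Its adjusted p was 0.14 without UTOpiA replicate 1 and 0.0862 without UTOpiA replicate 3, and the others gave no adjusted p. Its log2 fold change by DESeq2 was -7.10 to -5.23 in these fits, against -6.67 with all livers.

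**Figure D2:**
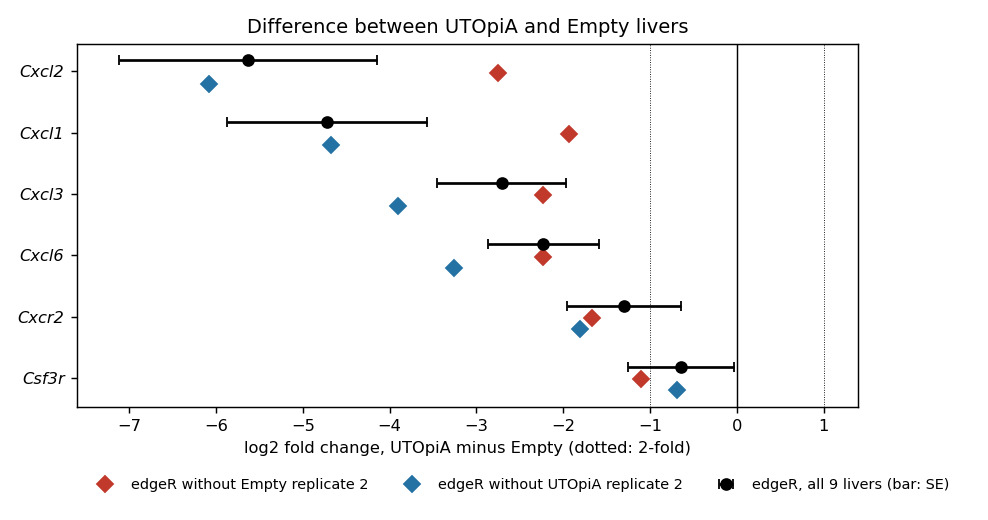
Difference between the UTOpiA and empty groups for the 6 tested members, as the log2 fold change from edgeR on the horizontal axis. Black points use all 9 livers with bars of 1 SE, red and blue diamonds leave out empty replicate 2 and UTOpiA replicate 2, and dotted lines mark a 2-fold change. Cxcl1 moves from -4.72 to -1.93 without empty replicate 2, while Cxcl6 is -2.23 in both.

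Against normal livers, the UTOpiA group was still higher for most members. This comparison shares its UTOpiA and normal livers with the comparisons above, and the values are set beside them without a test of their likeness. Of the 6 tested members 5 were called higher, as were 18.2% of genes, a count that the filter favours as above. All 6 were above every normal liver, as were 39.0% of tested genes. Cxcl6 was 358 times normal by its summed reads (95% exact interval 122 to 1740, edgeR adjusted p = 0.000944) and Cxcl3 at least 15.9-fold higher (adjusted p = 0.0102). UTOpiA replicate 2 held 1063 of the 1447 Cxcl6 reads. Without it Cxcl6 was 161 times normal (interval 54.6 to 783) and Cxcl3 at least 7.04-fold higher, both still called by edgeR. Normal replicate 2 held all normal Cxcl6 reads. The log2 fold change of Cxcl6 by edgeR was 8.19 with that liver and 11.77 without it. Cxcr2 was at least 5.48-fold higher (adjusted p = 0.00619 by edgeR), and not called by limma on log2(TPM + 1) with no filter (adjusted p = 0.0653). Csf3r had a log2 fold change of 3.67 (SE 0.78, adjusted p = 0.00619). Cxcl1 was called at a log2 fold change of 4.19 (SE 1.34, adjusted p = 0.0365 by edgeR). This call was lost with any of the normal or UTOpiA livers left out, at edgeR adjusted p between 0.0547 and 0.0961. The log2 fold change of Cxcl1 in those fits was 3.94 to 4.34. Cxcl2 was at least 4.02-fold higher but not called (edgeR adjusted p = 0.233). Of the 12 alternatives that gave it an adjusted p, 1 called it, limma on log2(TPM + 0.1) (log2 fold change 4.04, adjusted p = 0.0184). Csf3 was at 0 reads in both groups. For all 6 tested members the order of median TPM was normal, UTOpiA, empty, and for Cxcr2 and Csf3r the ranges of the UTOpiA and empty livers overlapped.

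The mix of ligands differed between single livers. The summed TPM of the 4 ligands was 0.877 to 1.11 in normal livers, 270, 2160 and 316 in the 3 empty livers, in replicate order, against 42.6, 110 and 29.7 in the UTOpiA livers. Cxcl6 made up 58.0% and 51.6% of this sum in empty replicates 1 and 3, and Cxcl1 made up 27.9% and 34.9%. In empty replicate 2 Cxcl1 alone made up 77.8% and Cxcl2 12.4%, while Cxcl6 made up 7.1%. UTOpiA replicates 1 and 2 had the former mix, with Cxcl6 at 50.9% and 64.8%, and UTOpiA replicate 3, the liver with the smallest sum, had 74.3% Cxcl1 and 19.8% Cxcl6. Cxcl2 and Cxcl3 stayed at or below 12.4% of the sum in each ACLF liver. The shares of Cxcl1 overlapped between the groups.

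**Figure D3:**
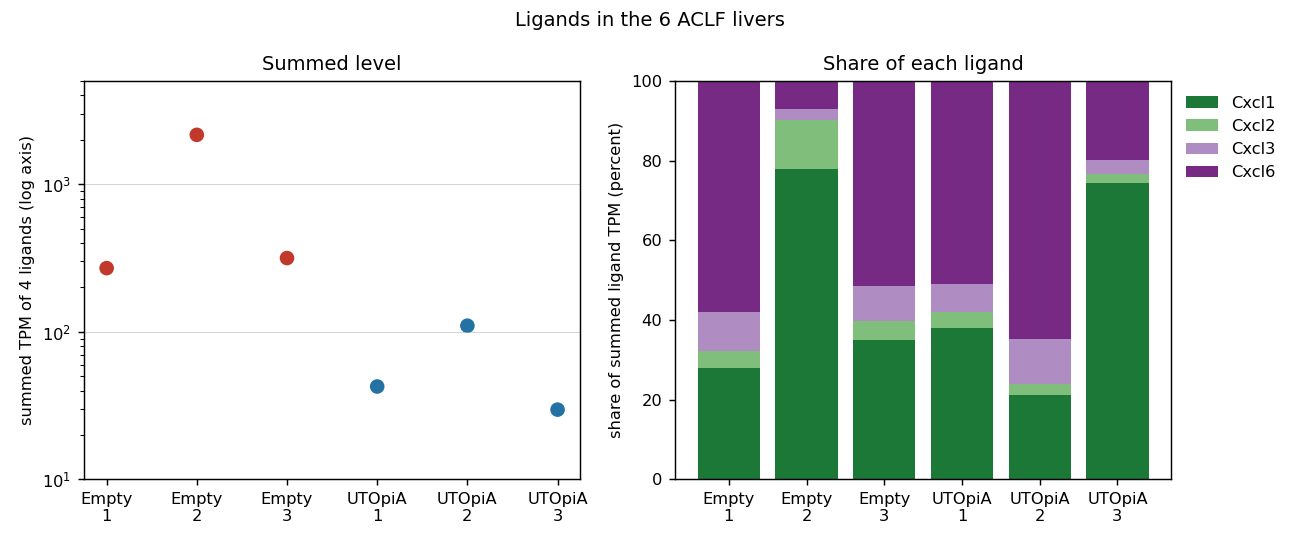
Left, summed TPM of the 4 ligands on a log axis in each of the 6 ACLF livers. Right, the share of that sum, in percent, that each ligand holds in the same livers, with Cxcl1 at 77.8% in empty replicate 2 and 74.3% in UTOpiA replicate 3.

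Ligand and receptor levels parted in empty replicate 2. The summed TPM of Cxcr2 and Csf3r was 8.96, 3.57 and 22.3 in the 3 empty livers, in replicate order, against 5.02, 7.77 and 3.34 in the UTOpiA livers. Empty replicate 2 thus had 6.84 times the ligand sum of empty replicate 3 and the lowest receptor sum of its group. Among the 3 UTOpiA livers, replicate 2 had the highest ligand and the highest receptor sum, and replicate 3 the lowest of both. Over the 6 ACLF livers, which share the group difference and library preparation, log2 CPM of Cxcl1 and Cxcl2 had a Pearson r of 0.97 (Spearman 0.83), and Cxcl3 and Cxcl6 an r of 0.97 (Spearman 0.94). Over the 8 pairs of a ligand and a receptor, r ran from -0.49 for Cxcl1 and Csf3r to 0.69 for Cxcl6 and Cxcr2. Over the 5 livers without empty replicate 2 it ran from 0.77 to 0.90. Without empty replicate 3 it ran from -0.78 for Cxcl1 and Csf3r to 0.79 for Cxcl6 and Cxcr2. These correlations are given as descriptions.

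**Figure D4:**
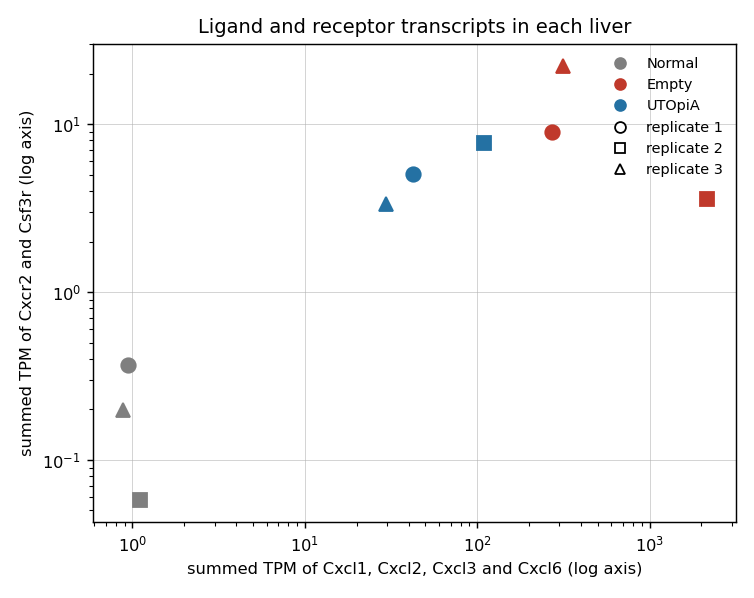
Summed TPM of Cxcl1, Cxcl2, Cxcl3 and Cxcl6 (horizontal, log axis) against summed TPM of Cxcr2 and Csf3r (vertical, log axis) in each of the 9 livers, coloured by group with a marker shape for each replicate. Empty replicate 2 lies farthest right, at 2160, with a receptor sum of 3.57.

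Markers of neutrophils were higher in ACLF livers as well. Over the 6 ACLF livers Cxcr2 and Csf3r each had an r of 0.84 with the mean log2 CPM of the 12 tested markers. That mean includes Lcn2, which ran against the other markers between the ACLF groups, as described below. For Cxcl1, Cxcl2, Cxcl3 and Cxcl6 this r was -0.30, -0.11, 0.34 and 0.54. Without empty replicate 2 it was 0.57, 0.88, 0.95 and 0.96 for the ligands, in the same order, and 0.89 and 0.80 for Cxcr2 and Csf3r. Without UTOpiA replicate 3 it was -0.58, -0.56, -0.15 and 0.15 for the ligands, and 0.78 and 0.94 for Cxcr2 and Csf3r. These values are given as a description over 5 livers that share the group difference. Of 24 listed markers, 23 were in the tables and 12 were tested, and these 12 rose in the empty group, where 20.7% of all tested genes did. Some of them, such as Mmp8 and Mmp9, were near 0 in normal livers and passed the filter through the ACLF libraries, and the 11 others were too low to test, so the count is no measure of the whole list. The calprotectin subunit gene S100a8 was 250, 75.4 and 503 TPM in the empty group, 177, 236 and 84.6 TPM in the UTOpiA group and no more than 1.85 TPM in normal livers. S100a9, which encodes its partner, was 272, 98.3 and 565 TPM in the empty group and 200, 257 and 84.0 TPM in the UTOpiA group. Both were lowest in empty replicate 2 among the empty livers, as the receptors were.

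The summed TPM of the 23 markers was 23.4 to 27.1 in normal livers, 1220 to 2830 in the empty group and 5600 to 6840 in the UTOpiA group. This order was set by Lcn2, which hepatocytes also express in the acute phase and which reached 5360 to 6310 TPM in the UTOpiA group. Without Lcn2, a choice made after its values were seen, the sums were 19.9 to 24.1 in normal livers, 931, 306 and 1440 in empty livers 1 to 3 and 532, 776 and 239 in UTOpiA livers 1 to 3. Of these 12 markers, edgeR called 0 between the ACLF groups, and 11 lay below 0, with a median log2 difference of -0.64 that ranged from -1.05 to -0.39 with an ACLF liver left out. The exception, Lcn2, was 290, 2520 and 417 TPM in the empty group, with a log2 difference of 2.63 (SE 0.75, adjusted p = 0.349 by edgeR). Without empty replicate 2 it was called higher in the UTOpiA group (4.28, adjusted p = 0.00484). Ltf was at 0 in all 9 livers. The primary granule genes Mpo, Elane, Ctsg and Prtn3, transcribed mainly in neutrophil precursors, and the surface marker gene Cd177 were at 0 in normal livers and did not exceed 0.99 TPM in any ACLF liver. The part of neutrophil content in the levels of the members was not tested.

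Marker RNA of other cell types was counted in the same way, against 20.7% of all tested genes that rose and 11.1% that fell. In the empty group 6 of 7 tested cholangiocyte markers, 8 of 11 macrophage markers and 6 of 8 stellate cell and fibroblast markers rose, while 5 of 10 hepatocyte markers fell and 1 rose. Of the endothelial markers 2 of 9 rose, which is near the share of all genes, and 1 fell. Without empty replicate 1 or 2 only 1 of 9 rose, and without replicate 2 there were 2 that fell. Of the T cell markers 5 of 7 rose, of the B cell markers 0 of 3 and of the erythroid markers 5 of 6 rose with 1 falling, the last of which was not called without empty replicate 1 or 3. Between the UTOpiA and empty groups 0 markers of these lists were called. Cholangiocyte sums were 326 to 654 TPM in the empty group and 143 to 428 TPM in the UTOpiA group, and macrophage sums 1780 to 2460 and 912 to 2290 TPM. Erythroid sums did not overlap. They were 109 to 312 TPM in normal livers, 2530 to 4050 in the empty group and 842 to 1410 in the UTOpiA group. The globin genes Hba-a1, Hba-a2 and Hbb held nearly all of these sums, and no other listed marker exceeded 13.2 TPM. The sums had the same order as the ligands, though edgeR called 0 of 6 erythroid markers between the ACLF groups. In that comparison 4 of the 6 had log2 differences below 0 and 2 above, Ahsp at 0.31 and Slc4a1 at 0.34. The part of these cell types in the ligand levels was not tested.

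Genes upstream and downstream of the members were followed with lists of the pathway, whose counts in the empty group stand beside the same 20.7% and 11.1% of all tested genes that rose and fell. NF-kB feedback genes, most of which NF-kB itself induces, restrain or extend its action. Of these, 8 of 10 rose in the empty group (median log2 fold change 3.13, and 2.03 without empty replicate 2). The inhibitor gene Nfkbia was 14.5 to 19.4 TPM in normal livers, 114, 634 and 150 TPM in the empty group and 86.4, 113 and 42.5 TPM in the UTOpiA group. Nfkbiz, a co-activator for a subset of NF-kB targets, was 16.9, 129 and 26.0 TPM in the empty group and 6.90, 10.4 and 8.52 TPM in the UTOpiA group, with a log2 difference of -2.54 (SE 0.70, adjusted p = 0.348 by edgeR). Both peaked in empty replicate 2. Between the UTOpiA and empty groups 0 of 10 were called and all 10 lay below 0, with a median of -0.89. Without empty replicate 2 the median was 0.02, with 5 of 10 below 0, while Nfkbiz was still lower in each UTOpiA liver than in the empty livers. Against normal livers 6 of the 10 rose in the UTOpiA group, and 3 without UTOpiA replicate 1 or without replicate 2, beside 18.2% of all tested genes with every liver.

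Of the cytokines that induce these chemokines and the receptors for them, 9 genes were tested and 4 rose in the empty group, among them the receptor gene Il1r1. Il1b was 66.3, 198 and 31.2 TPM in the empty group, 16.6, 43.1 and 4.90 TPM in the UTOpiA group and 1.79 to 2.27 TPM in normal livers (log2 difference between the ACLF groups -2.16, SE 0.75, adjusted p = 0.408 by edgeR). Il6, an inducer of the acute-phase response, was 1.15, 80.3 and 2.14 TPM in the empty group, 0.456, 0.726 and 0.208 TPM in the UTOpiA group and 0 in normal livers. Tnf was 0.476, 1.09 and 0.189 TPM in the empty group and 0, 0 and 0.193 TPM in the UTOpiA group. Of the IL-17 arm that drives G-CSF and CXC chemokines in many tissues, Il17a was 0.351, 0.0949 and 0.465 TPM in the empty group and 0 in the other livers, its receptor gene Il17ra had an adjusted p of 0.055 by edgeR at a log2 fold change of 0.42, and Il23a rose by 3.02 (adjusted p = 0.0129). Between the ACLF groups 0 of these 9 genes were called.

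Other neutrophil chemoattractants and their receptors rose in 9 of 11 tested cases. The complement receptor gene C5ar1 was 28.3, 4.79 and 25.7 TPM in the empty group, lowest in replicate 2 like Cxcr2, and 12.3, 20.0 and 5.90 TPM in the UTOpiA group. Ccl3 was 16.8, 26.2 and 11.9 TPM in the empty group and 3.93, 6.01 and 2.01 TPM in the UTOpiA group, a log2 difference of -2.07 (SE 0.41, adjusted p = 0.194 by edgeR). The formyl peptide receptor gene Fpr1 did not exceed 0.449 TPM. Between the ACLF groups 0 of 11 were called, and 10 lay below 0.

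Downstream of the receptors, 4 of 10 genes of G-CSF receptor signalling and 7 of 12 genes of chemokine receptor signalling rose in the empty group. Stat3, the main transcription factor below CSF3R and the IL-6 receptor, was 26.2 to 33.3 TPM in normal livers, 142 to 171 TPM in the empty group and 64.3, 151 and 140 TPM in the UTOpiA group. Socs3, the feedback inhibitor of the same receptors, was 58.1, 305 and 60.0 TPM in the empty group and 33.9, 39.8 and 48.5 TPM in the UTOpiA group (log2 difference -1.56, SE 0.75, adjusted p = 0.518 by edgeR). Between the ACLF groups 0 genes of either list were called.

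For the balance of neutrophil retention and release, the marrow and stromal retention signal Cxcl12 fell in the empty group, from 71.4 to 116 TPM in normal livers to 40.0, 15.7 and 44.4 TPM (log2 fold change -1.98, adjusted p = 0.00293 by edgeR), and was 36.3, 25.4 and 28.7 TPM in the UTOpiA group. Its receptor gene Cxcr4, carried by many leukocytes, rose by 4.10 on the log2 scale (adjusted p = 2.9e-05). It was 29.7 to 37.1 TPM in the empty group and 11.9 to 22.4 TPM in the UTOpiA group, without overlap (log2 difference -0.90, SE 0.21, adjusted p = 0.27 by edgeR). In all, 2 of the 5 tested genes of this list rose and 1 fell.

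The platelet chemokine gene Pf4, which lies between Cxcl3 and Cxcl6, was 0.786 to 2.55 TPM in normal livers, 14.8, 22.5 and 32.1 TPM in the empty group and 8.61, 22.5 and 16.7 TPM in the UTOpiA group. It rose in the empty group (log2 fold change 3.16, adjusted p = 0.00132 by edgeR), and its values overlapped between the ACLF groups, unlike those of the ligand genes on either side. Its neighbour Ppbp did not exceed 0.716 TPM. Of the 3 tested genes of that list 2 rose. Other colony-stimulating factors and receptors rose in 5 of 5 tested cases. Csf1, the macrophage growth factor, was 17.6, 40.4 and 24.8 TPM in the empty group and 21.5, 28.1 and 12.9 TPM in the UTOpiA group. Csf2, which encodes GM-CSF, was 0, 17.5 and 0.482 TPM in the empty group, so it was high in empty replicate 2 as Csf3 was, and 0.540, 0 and 0 TPM in the UTOpiA group.

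Last, the 5 tested genes whose log2 CPM was most like each member over the 6 ACLF livers were listed by Pearson r, as a description. For Cxcl1 they were Nfkbiz (0.998), Csnk1e, Dusp6, Sat1 and Pim1 (0.989). For Cxcl2 they were Tfpi2 (0.999), Ahcyl2, the chemokine gene Ccl20 (0.991), Rapgef5 and Irak2. Ccl20 was 27.2, 110 and 32.0 TPM in the empty group and 7.86, 16.3 and 5.51 TPM in the UTOpiA group. For Cxcl3 they were Vhl (0.997), Fbxo32, AABR07068351.1, Sgk1 and Chmp2b, and for Cxcl6 AABR07049085.1 (0.994), Chmp2b, Slfn2, Alpk1 and Usp3, so Chmp2b was on both lists. For Cxcr2 they were Tigar (0.995), the neutrophil granule gene Pglyrp1 (0.993), Znrd2, Cbx7 and Slc35a4. For Csf3r they were Dnm1 (0.993), the leukocyte adaptor gene Lat2 (0.991), Kcnd1, Dnajc17 and Sh2d3c.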

How the data were processed

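RNA was measured in 9 livers, and each library was put in its group by its label. The submitters' processing notes name Trimmomatic, HISAT2, featureCounts and the rat build rn6, whereas the methods name Cutadapt, HISAT2, featureCounts and the mouse build GRCm38. Positions of genes are those of the tables and were not converted. How strand was handled when counting is not given in the sources used here, so reads of overlapping genes could be shared. The authors deposited raw counts per gene and, in another table, TPM, in which counts are divided by gene length and then by the library's total. Near-identical sequence among the CXC ligand genes could also split or lose reads in the counting of uniquely mapped reads.

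Counts entered edgeR 4.0.16 (R 4.3.3) with TMM factors between 0.802 and 1.321, filterByExpr on the groups and 1 quasi-likelihood fit over all 9 libraries, adjusted by Benjamini-Hochberg over the 14089 genes tested. The SE is the log2 fold change divided by the root of the F statistic. Single levels were compared on TPM by two-sided exact permutation tests in scipy 1.17.1. Folds against a group at 0 counts use a floor of 3 counts per library, and correlations use log2 CPM with a prior count of 2. On simulated counts for the UTOpiA and empty groups with 200 genes changed 4-fold, the test recovered 152 and made 16 false calls among 13736 genes tested. The simulation fitted these groups alone and held no outlying liver such as empty replicate 2. It therefore does not give the power of the test in these livers. The labels call the libraries biological replicates, and no pair of replicates was a repeat of the same counts (lowest chi-square per degree of freedom 17.6).

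Genes named are the 8 members, a fixed set of genes from the pathway lists, and the 5 tested genes most like each member. Some genes were singled out after their values were seen. These were Lcn2, Ltf, Ctsg, Prtn3, Ccl20, Pglyrp1, Lat2, Mmp8, Mmp9, Il1r1, Hba-a1, Hba-a2, Hbb, Ahsp and Slc4a1. The members and lists were chosen with earlier results of these data known. Of the listed genes, Cxcl5 (given as a synonym of Cxcl6 by RefSeq), Ackr1 and a few markers were not analysed here. Alternatives were DESeq2 1.42.0, limma 3.58.1 on log2(TPM + 1), with genes of mean TPM 1 or more or with every gene, and on log2(TPM + 0.1), median-of-ratios factors, no count filter, 10 counts or more in each library, no fold threshold, the 6 libraries compared, the replicate number as a block and each library left out. Fold bounds and ranks with a liver left out were chosen after seeing the data. Promoters are from a RefSeq table of build GRCr8.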

Additional observations from a re-analysis of the deposited data

How the results depend on the processing

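Between the UTOpiA and empty groups, 0 members were called by edgeR with all livers, 3 by DESeq2, and 0 to 3 with a liver left out (by edgeR or DESeq2), where edgeR called 1 without empty replicate 2 and 0 without each other ACLF liver. The log2 fold change of Csf3r turned to 0.06 by edgeR and 0.04 by DESeq2 without empty replicate 3, from -1.10 by edgeR without empty replicate 2, and no other tested member changed direction under any alternative. With at least 10 counts in every library no member passed the filter, so 0 were called in either ACLF group against normal livers and that setting says nothing of the members. Against normal livers, the number called in the empty group was 5 to 7 under the other alternatives, and in the UTOpiA group 4 to 6. Cxcl2 in the empty group (adjusted p = 0.052) and Cxcl1 in the UTOpiA group (adjusted p = 0.102) lost their calls with no filter on counts by edgeR, as did Cxcr2 in the UTOpiA group by limma on log2(TPM + 1) with no filter (adjusted p = 0.0653), and the cause was not tested. Same-numbered samples did not deviate together (correlations of -0.183 to 0.064), so the numbers were not taken as pairs. With the replicate block edgeR called 6, 0 and 5 members in the 3 comparisons, as without it. In the UTOpiA and empty groups the log2 fold change of Cxcl1 ranged from -5.26 to -1.93 over the alternatives, and the adjusted p from 3.56e-08 to 0.816. For Cxcl6 these ranges were -3.30 to -1.77 and 2.64e-10 to 0.837. With 3 livers a group, exact tests cannot go below p = 0.1. Csf3, at 7 to 49 reads in the empty group, is limited by depth.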
